A study of Mus musculus with 1528 samples.

Results

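The cells described here are the 144 bone marrow-derived macrophages, of 1439 kept single cells, that were caught in G2 or M phase of the cell cycle. They were chosen by their RNA: each kept cell was given a score, the mean of log2(CPM + 1) over *Ccnb1*, *Ccnb2*, *Cdc20*, *Plk1*, *Cenpa*, *Aspm* and *Hmmr* (CPM, the count scaled to a library of equal size in each cell), and the cells in the top 10% of all kept cells formed the G2/M group. The 7 genes thus define the group, and their levels are given below as a description, with no test. The lowest score inside the group was 6.70 and the highest outside it was 6.69, and 28 cells inside and 26 outside lay within 0.5 of that limit. The median score was 7.74 in the group and 1.10 in the other 1295 kept cells. Outside the group 40 cells scored at least 6, including the 26 near the limit, and 30 cells scored between 4 and 5. The scores thus ran on across the limit without a gap.

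The macrophages were grown from bone marrow of 2 C57BL/6 mice for 7 d in M-CSF, a growth factor that drives macrophage precursors to divide and mature. They were then stimulated for 24 h with IL4 and IL13, which induce alternative (M2) polarisation, or with IL4, IL13 and TNF, an inflammatory cytokine that acts through NF-kB, each at 10 ng/ml. The design gives 2 separate mice, and the number 1 or 2 in each cell's label is read here as the mouse, although the labels do not say so in words. Each number occurs with both treatments (IL4+IL13 and IL4+IL13+TNF) on the same 2 plates, so there are 4 samples, 2 mice by 2 treatments. All groups share M-CSF, IL4 and IL13, and no unstimulated macrophage is in these comparisons. RNA of each cell was read by Smart-seq2, a full-length method without molecular identifiers.

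A dividing cell copies its DNA in S phase, and in G2 and M phase it raises cyclin B, which activates the kinase CDK1, then builds a spindle, attaches chromosomes to it by their kinetochores, and finally destroys the cyclins through the anaphase-promoting complex (APC/C). The genes of these steps are switched on together late in the cycle. In quiescent cells and in G1 they are held down by pocket proteins and E2F4 on the MuvB complex, and in G2 the same complex carries B-MYB and FOXM1, which activate them. A pair of short promoter elements is known for this group of genes, the CHR, which MuvB binds, and the CCAAT box, which NF-Y binds.

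Kept cells held 200235 to 6122892 gene fragments, with sample medians of 445699 to 489334. G2/M cells were not deeper than the others in a constant direction. Their median depth was 471311 against 478663 fragments (mouse 1) and 518524 against 471020 (mouse 2) without TNF, and 371611 against 451407 (mouse 1) and 453242 against 490830 (mouse 2) with TNF. After each cell was thinned to 200000 fragments, G2/M cells held more detected genes than the others in all 4 samples, by 574 and 862 genes without TNF and by 769 and 1036 with TNF (differences of medians, mice 1 and 2). Gene fragments per fragment of added spike-in RNA, a measure of RNA per cell that the score did not use, were not higher in every sample. The log2 difference between G2/M cells and others was 0.03 and 0.44 without TNF and -0.17 and 0.57 with TNF, a mean of 0.21 ± 0.34 (SD, 4 samples), which is smaller than its spread. No doublet caller was run, and the part of doublets in the group was not tested.

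The genes of the score separated the group widely, as the rule requires. All 7 were found in 133 of 144 G2/M cells (92.4%) and in 34 of 1295 others (2.63%). *Ccnb1*, the B-type cyclin that activates CDK1, had a mean of 289.7 and 306 CPM in mice 1 and 2 without TNF and 345 and 325 CPM with TNF. In the other cells its means were 22.1, 16.9, 15.8 and 8.54 CPM in the same order. *Ccnb2*, the second B-type cyclin, had 629.9 and 727 CPM in mice 1 and 2 without TNF and 529 and 394 CPM with TNF, and 103, 103, 34.5 and 19.1 CPM in the others. For both cyclins every G2/M sample lay above every sample of other cells. *Cdc20*, the APC/C activator of metaphase, had 323 and 265 CPM in mice 1 and 2 without TNF and 362 and 183 CPM with TNF, against 13.2, 5.17, 7.54 and 5.30 CPM. *Plk1*, the polo-like kinase of mitotic entry, had 225 and 226 CPM in mice 1 and 2 without TNF and 231 and 183 CPM with TNF, against 10.3, 9.19, 5.14 and 3.28 CPM. Both were also higher in each G2/M sample than in any sample of other cells. *Cenpa*, the histone variant of the centromere, had 606 and 750.4 CPM in mice 1 and 2 without TNF and 551 and 489 CPM with TNF, but the other cells also held 122, 158, 40.6 and 53.2 CPM. It was thus the score gene with the smallest separation (median log2 difference over the 4 samples 2.74), and 76.6% of other cells held it. *Aspm*, a spindle pole protein, had 147 and 261 CPM in mice 1 and 2 without TNF and 146 and 155 CPM with TNF, against 4.45, 3.85, 2.61 and 1.91 CPM, the widest separation of the 7 (5.55). *Hmmr*, a microtubule-binding spindle protein, had 236 and 311 CPM in mice 1 and 2 without TNF and 231 and 310.4 CPM with TNF, against 18.4, 14.2, 11.7 and 5.35 CPM.

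**Figure D1:**
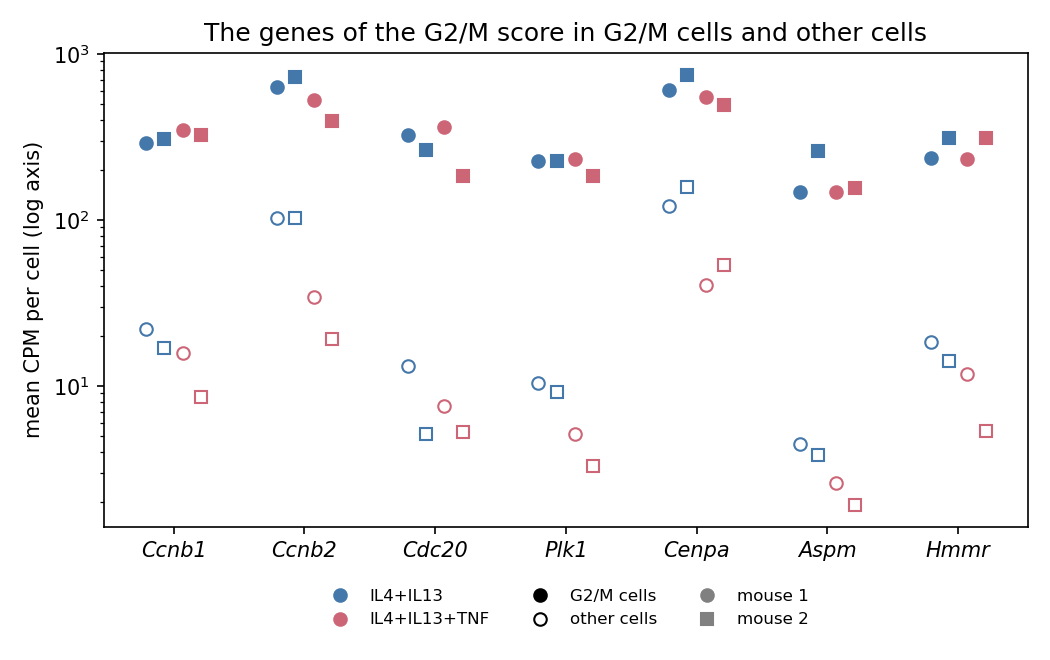
Mean CPM per cell (log axis) of the 7 score genes in G2/M cells (filled) and other kept cells (open), by mouse (circle, mouse 1, and square, mouse 2) and treatment (colour). The filled points lie above the open points for each gene, and the open red points of *Ccnb2* and *Cenpa* lie below the open blue ones.

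The stretches around the transcription starts of the 7 genes are shown because most of them carry the elements of the late cell cycle. Each runs from 130 bases before the start to 25 bases after it, 5′ to 3′ on the strand of the gene (RefSeq, GRCm38.p6). Capitals mark every CHR (TTTGAA or TTCGAA, on either strand) and every CCAAT (or its reverse, ATTGG).
Ccnb1 at chr13:100786462-100786616, minus strand: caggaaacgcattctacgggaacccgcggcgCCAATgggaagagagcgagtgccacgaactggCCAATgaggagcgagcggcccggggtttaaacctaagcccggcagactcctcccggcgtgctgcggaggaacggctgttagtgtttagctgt
Ccnb2 at chr9:70421530-70421684, minus strand: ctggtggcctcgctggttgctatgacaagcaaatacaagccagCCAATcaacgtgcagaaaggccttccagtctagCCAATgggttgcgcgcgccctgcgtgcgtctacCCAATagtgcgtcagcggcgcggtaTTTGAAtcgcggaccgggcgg
Cdc20 at chr4:118437319-118437473, minus strand: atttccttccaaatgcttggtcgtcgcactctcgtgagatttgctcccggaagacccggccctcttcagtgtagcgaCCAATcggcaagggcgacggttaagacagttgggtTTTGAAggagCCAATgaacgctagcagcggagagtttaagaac
Plk1 at chr7:122159305-122159459, plus strand: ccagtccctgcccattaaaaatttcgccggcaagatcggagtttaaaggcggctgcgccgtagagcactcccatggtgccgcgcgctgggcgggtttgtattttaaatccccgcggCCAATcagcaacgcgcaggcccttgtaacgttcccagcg
Cenpa at chr5:30666756-30666910, plus strand: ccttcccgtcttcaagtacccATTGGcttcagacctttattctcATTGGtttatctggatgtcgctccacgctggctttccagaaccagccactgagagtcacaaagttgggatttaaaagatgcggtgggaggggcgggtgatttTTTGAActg
Aspm at chr1:139454643-139454797, plus strand: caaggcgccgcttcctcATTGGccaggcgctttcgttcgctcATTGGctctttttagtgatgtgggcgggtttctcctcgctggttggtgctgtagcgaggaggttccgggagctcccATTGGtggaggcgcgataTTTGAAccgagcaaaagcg
Hmmr at chr11:40733413-40733567, minus strand: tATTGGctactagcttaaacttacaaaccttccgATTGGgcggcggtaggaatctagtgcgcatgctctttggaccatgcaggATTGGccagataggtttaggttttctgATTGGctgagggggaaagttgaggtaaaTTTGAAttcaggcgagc

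In the full window of 300 bases (250 before to 50 after the start), each of the 7 promoters held at least 1 CCAAT, with 5 in *Hmmr* and 3 each in *Ccnb2* and *Aspm*. A CHR stood downstream of at least 1 CCAAT in *Cdc20* (beginning 18 bases before the start), *Ccnb2* (at base 5), *Aspm* (base 7), *Hmmr* (base 9) and *Cenpa* (base 17). That of *Plk1* began at base 31, outside the stretch shown, and the window of *Ccnb1* held none of the spellings searched. With the 7 score genes included, 14685 genes were found in at least 10% of G2/M or other cells. Of these, 438 (2.98%), among them all 7 score genes, were at least 2-fold higher in G2/M cells in 4 of 4 samples (log2 of mean CPM + 1). Of the 309 such protein-coding genes outside the score, 253 had a listed promoter. A CHR lay in 117 of these (46.2%), against 13.5% of 8121 protein-coding genes that were not 2-fold higher and 19.4% of all 27025 promoters listed. A CCAAT lay in 64.0%, against 38.9% and 37.9%, and both lay in 32.8%, against 5.42% and 7.70%. The CHR of the higher genes lay near the start, with 16.6% of promoters holding one in the last 50 bases before it and 19.4% in the first 50 bases after it, against 1.53% and 1.18% of the genes not 2-fold higher. From 250 to 200 bases before the start the shares were 4.35% and 3.97%. These are counts of letters, not of bound sites.

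**Figure D2:**
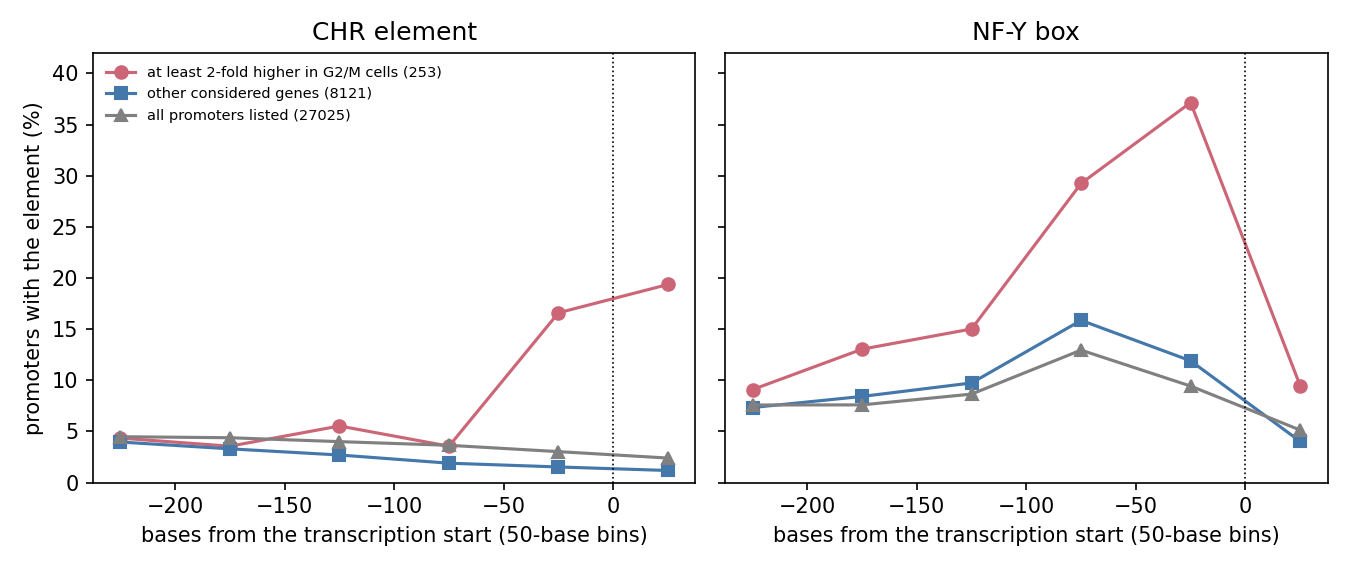
Share of promoters (%) that hold a CHR (left) or a CCAAT box (right, named NF-Y box) in each 50-base bin, against distance from the transcription start in bases, for genes at least 2-fold higher in G2/M cells with the score genes left out, for the other considered protein-coding genes, and for all promoters listed. The CHR line of the higher genes rises to 16.6% and 19.4% in the bins on both sides of the start, and their CCAAT line peaks at 37.2% in the last 50 bases before it.

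Most of the machinery of mitosis was higher in the G2/M cells, by lists that hold none of the score genes. The score chose these cells, so the differences are described and not tested. The median log2 difference between G2/M and other cells over all 14685 genes was 0.02. It was 3.04 for 13 mitotic cyclins and CDK1 regulators, of which 10 were at least 2-fold higher in 4 of 4 samples. *Ccna2*, the A-type cyclin of S and G2 phase, had 467 and 406 CPM in mice 1 and 2 without TNF and 429.8 and 340.0 CPM with TNF, against 45.1, 13.9, 26.9 and 9.13 CPM. *Cks1b*, a small CDK-binding subunit, had 449 and 449.9 CPM in mice 1 and 2 without TNF and 472 and 392 CPM with TNF, against 73.4, 41.0, 65.8 and 40.2 CPM. The 3 genes of this list that were not 2-fold higher throughout were *Wee1*, *Ensa* and *Arpp19* (median log2 1.64, -0.14 and 0.33). *Wee1* is the inhibitory kinase of CDK1, and *Ensa* and *Arpp19* encode the phosphatase inhibitors that MASTL activates.

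All 9 mitotic kinases were at least 2-fold higher in 4 of 4 samples (median log2 3.86). *Aurkb*, the catalytic subunit of the chromosomal passenger complex, had 231 and 245 CPM in mice 1 and 2 without TNF and 265 and 354 CPM with TNF, and *Aurka*, the spindle pole kinase, had 153 and 167 CPM in mice 1 and 2 without TNF and 249 and 152 CPM with TNF. In the other cells *Aurkb* had 39.0, 20.6, 30.6 and 14.5 CPM and *Aurka* 14, 2.66, 8.96 and 3.88 CPM. The 4 passenger complex genes, the 16 kinetochore and centromere genes, the 15 kinesins and spindle factors and the 8 cytokinesis genes were likewise all at least 2-fold higher in all 4 samples. Their list medians were 3.36, 3.86, 4.08 and 4.19. *Cenpf*, an outer kinetochore protein, had 259 and 419.7 CPM in mice 1 and 2 without TNF and 294 and 320.3 CPM with TNF, against 18.2, 10.7, 6.72 and 6.93 CPM. *Birc5* (survivin), a passenger complex subunit, had 679.6 and 564 CPM in mice 1 and 2 without TNF and 669 and 570.1 CPM with TNF, against 72.2, 45.2, 37.3 and 17.4 CPM. *Kif2c*, a kinesin that takes microtubules apart, had 147 and 114 CPM in mice 1 and 2 without TNF and 125 and 128 CPM with TNF, and *Prc1*, the bundler of the central spindle, had 117 and 165 CPM in mice 1 and 2 without TNF and 205 and 129.8 CPM with TNF. Each of these genes was several times higher in its lowest G2/M sample than in its highest sample of other cells.

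The APC/C divided by role. Its E2 enzyme *Ube2c* had a median log2 difference of 5.24, with 591 and 765 CPM in mice 1 and 2 without TNF and 850.3 and 616 CPM with TNF, against 37.7, 23.6, 17.5 and 8.97 CPM. Among the 6 regulators, 5 were at least 2-fold higher in 4 of 4 samples, and *Pttg1*, securin, was not, with 71.0 and 68.5 CPM in mice 1 and 2 without TNF and 96.5 and 53.5 CPM with TNF, against 65.2, 61.0, 62.6 and 67.5 CPM in the others. None of the 14 core subunits was 2-fold higher in 4 of 4 samples (list median 0.55, range -0.16 to 1.38). *Anapc5*, named for its count, had 342 and 264 CPM in mice 1 and 2 without TNF and 301 and 238 CPM with TNF, against 208, 146, 167 and 132 CPM. The checkpoint showed the same mixture, with 5 of 6 genes 2-fold higher throughout and *Mad1l1* at a median log2 of 1.29.

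Genes of chromosome structure were higher too. *Top2a*, which untangles DNA, had 489.8 and 726 CPM in mice 1 and 2 without TNF and 697 and 990.1 CPM with TNF, against 67.6, 24, 41.1 and 20.6 CPM, and 9 of 10 condensin and topoisomerase genes were at least 2-fold higher in 4 of 4 samples. All 11 chromatin and tubulin genes were, and *Tubb5*, a beta-tubulin of dividing cells, had 1641 and 1865 CPM in mice 1 and 2 without TNF and 2047 and 1648 CPM with TNF, against 483, 272, 492 and 306 CPM. In the nuclear lamina *Lmnb1*, *Lmnb2*, *Lbr* and *Tmpo* were at least 2-fold higher in all 4 samples (median log2 2.62, 2.50, 1.99 and 2.66). *Lmna*, the A-type lamin, was not (0.14), with 449.5 and 305 CPM in mice 1 and 2 without TNF and 415 and 248 CPM with TNF, against 404, 272, 389.5 and 227 CPM.

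**Figure D3:**
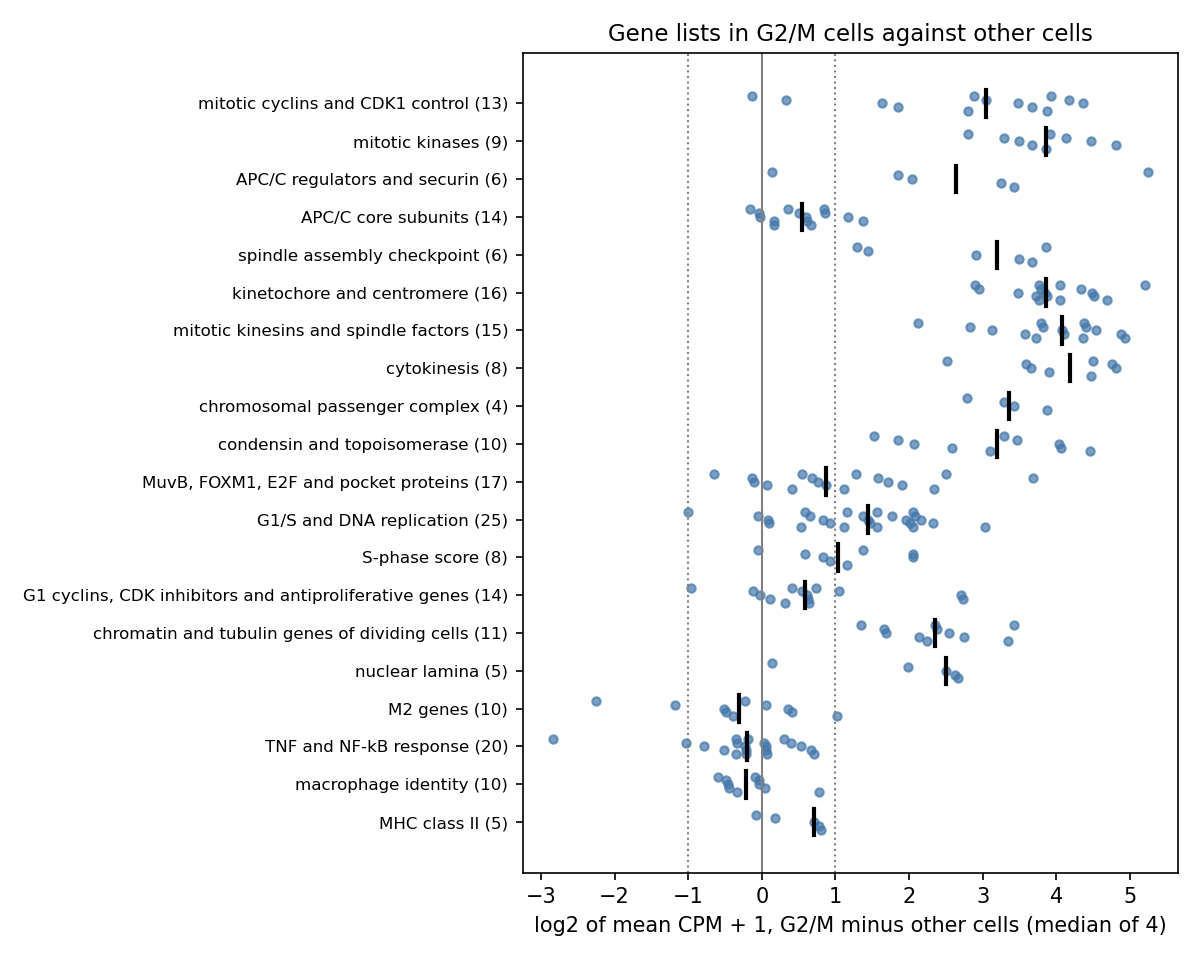
Each point is 1 gene, and its position is the median over the 4 samples of the log2 difference between G2/M cells and other cells (mean CPM + 1). Bars mark list medians, numbers in brackets count the genes considered, and dotted lines mark 2-fold. The medians of the mitotic lists lie to the right of 2-fold, apart from that of the APC/C core at 0.55, while those of the M2, TNF and macrophage identity lists lie between -0.31 and -0.20.

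The regulators of this programme divided in the same way. *Foxm1* had 95.2 and 96.8 CPM in mice 1 and 2 without TNF and 103 and 95.7 CPM with TNF, against 8.86, 6.83, 6.39 and 6.30 CPM, and *Mybl2*, which encodes B-MYB, had a median log2 difference of 1.12. The subunits of MuvB itself, *Lin9*, *Lin37*, *Lin52*, *Lin54* and *Rbbp4*, had median log2 differences of 1.71, 0.41, 0.87, 1.58 and 0.55. Over the list of 17 genes, 5 were at least 2-fold higher in 4 of 4 samples (list median 0.87), namely *Foxm1*, *Lin9*, *Rbl1*, *E2f7* and *E2f8*. *Rb1*, the retinoblastoma protein, had a median of -0.65, and *E2f1* and *E2f3* had -0.13 and -0.11. Among G1 cyclins, CDK inhibitors and antiproliferative genes, only *Cdkn2c* and *Cdkn2d*, inhibitors of the G1 kinases CDK4 and CDK6, were at least 2-fold higher in all 4 samples. *Cdkn2d* had 171 and 158 CPM in mice 1 and 2 without TNF and 208 and 191.5 CPM with TNF, against 37.2, 26.4, 26.5 and 22.3 CPM. The D-type cyclins *Ccnd1*, *Ccnd2* and *Ccnd3* had median log2 differences of 0.31, -0.96 and 0.74, and *Cdkn1a*, the p21 inhibitor, had 0.61.

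Outside the lists, the 15 genes with the widest separation that were found in at least 25% of G2/M cells had median log2 differences from 3.91 (*Shcbp1*) to 5.42 (*Pif1*, a DNA helicase). *Pif1* was found in 56.2% of G2/M cells and 3.86% of others, with 42.5 and 80.5 CPM in mice 1 and 2 without TNF and 51.4 and 63.0 CPM with TNF, against 1.91, 0.0416, 0.506 and 0.219 CPM. *Pimreg*, a mitotic regulator, was found in 91.0% and 13.6%. *Fam83d*, *Arhgef39*, *Prr11*, *Ankle1*, *Troap*, *Depdc1a*, *Parpbp*, *Kif15*, *Neil3* and *Sapcd2* lay between these limits. *Gm8956* and *Gm7856*, which RefSeq lists as pseudogenes, also belonged to the 15 (median log2 4.41 and 4.05), and their counts are uncertain because they may hold reads of near-identical genes. Fewer genes were lower. At least 2-fold lower in 4 of 4 samples were 35 genes (0.238%). *Tcp11l2* had the widest separation downwards (median log2 -3.40), with 5.50 and 20.7 CPM in mice 1 and 2 without TNF and 2.38 and 0.697 CPM with TNF, against 82.7, 161, 28.2 and 52.2 CPM. *Slfn5*, a Schlafen family gene, had 35.5 and 102 CPM in mice 1 and 2 without TNF and 17.9 and 43.1 CPM with TNF, against 143, 254, 95.6 and 194 CPM, and *Lpin1*, a lipin phosphatase, had 8.40 and 31.9 CPM in mice 1 and 2 without TNF and 11.1 and 7.94 CPM with TNF, against 47.8, 90.8, 25.2 and 40.3 CPM. All 3 were lower in each sample, and for *Tcp11l2* the highest G2/M sample also lay below the lowest sample of other cells.

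The G2/M cells held macrophage markers. *Lyz2*, *Cd68*, *Csf1r* and *Adgre1* were found in all 144 (100%). Their levels were lower than in the other cells of the same sample in 4 of 4 samples, by median log2 differences of -0.45, -0.46, -0.34 and -0.48. *Csf1r*, the M-CSF receptor, had 649 and 1009 CPM in mice 1 and 2 without TNF and 989.6 and 1135 CPM with TNF, against 901, 1379, 1005 and 1339 CPM. Of the 10 identity genes these 4 were lower in 4 of 4 samples, *Cd14* was higher in 4 of 4 (median log2 0.78), and 5 differed in sign between samples. *Mertk*, *Aif1* and *Fcgr1* were found in 23.6%, 45.8% and 52.8% of G2/M cells and in 28.0%, 46.4% and 46.9% of others. None of the 10 identity genes differed 2-fold in 4 of 4 samples (list median -0.22). Markers of other cell types were low, with progenitor and dendritic cell genes reaching the largest sums. The summed means per sample were 0.16 to 4.54 CPM over 6 neutrophil genes, 0 to 0.12 over 3 erythroid genes, 0 to 0.51 over 3 mast cell and basophil genes, 0.30 to 3.44 over 4 fibroblast genes and 0.23 to 12.9 over 6 progenitor genes. In the other cells these sums were 1.14 to 5.90, 0.03 to 0.41, 0.19 to 0.63, 0.61 to 2.01 and 2.20 to 12.6 CPM. *Ly6g*, *Cd79a*, *Nkg7*, *Mcpt8*, *Elane* and *Prtn3* were found in none of the 144 G2/M cells. The 4 dendritic cell genes summed to 6.06 to 13.02 CPM, and *Flt3* was found in 92.4% of G2/M cells and 92.8% of others, with sums of 8.26 to 14.05 in the others.

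TNF went with fewer G2/M cells in both mice. In mouse 1, 65 of 362 kept cells were in G2/M without TNF (17.96%, exact 95% binomial interval 14.1 to 22.3) and 24 of 363 with TNF (6.61%, 4.28 to 9.68). In mouse 2 they were 36 of 359 (10.03%, 7.12 to 13.6) and 19 of 355 (5.35%, 3.25 to 8.23). The intervals cover counting error only. The mean share was 13.99 ± 5.61% without TNF and 5.98 ± 0.89% with TNF (SD, n = 2 mice each), and the difference within a mouse was -11.3 and -4.68 percentage points. The share was also lower with TNF on each of the 4 plates, with differences of -10.4 and -12.3 points on the plates of mouse 1 and -6.78 and -2.51 points on those of mouse 2. The exact two-sided permutation test over the 4 samples gave p = 0.333, the smallest that this test allows with 2 against 2, so the test cannot pass 0.05 here. It does not use the pairing within a mouse. The intervals of the treatments overlapped on 3 of the 4 plates and stood apart on the second plate of mouse 1.

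**Figure D4:**
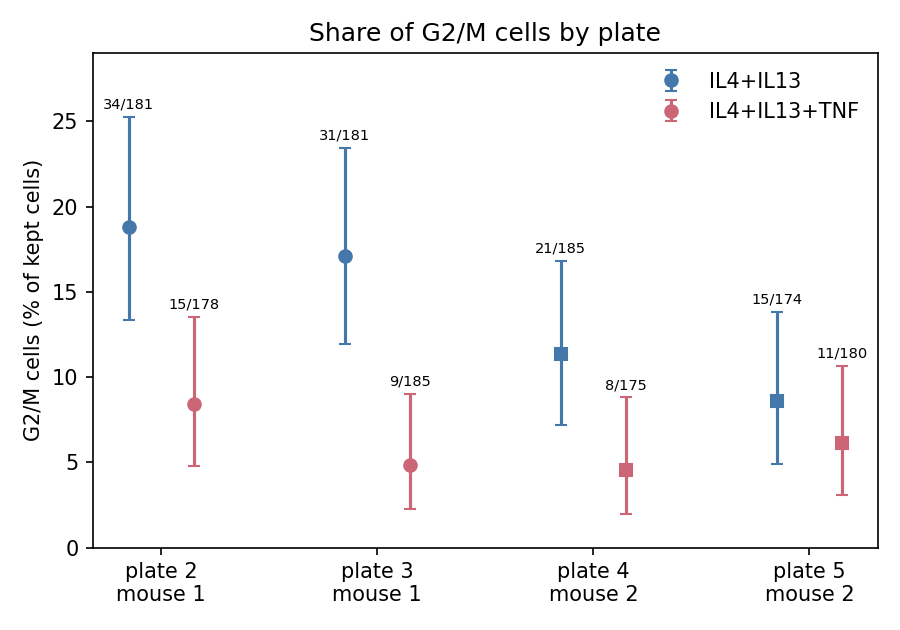
Share of kept cells in the G2/M group (%) on each plate, without TNF (blue) and with TNF (red). Points are shares, bars are exact 95% binomial intervals, circles and squares are mice 1 and 2, and the fractions give G2/M cells over kept cells. Each red point lies below the blue point of its plate, with differences from -2.51 to -12.3 percentage points.

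The share of S-phase cells differed by mouse, and with TNF it moved in opposite directions in the mice, with overlapping intervals. When the top 10% of cells were taken by an S-phase score (mean log2(CPM + 1) of *Mcm2*, *Mcm3*, *Mcm4*, *Mcm5*, *Mcm6*, *Ccne2*, *Uhrf1* and *Gins2*), they made up 17.4% and 2.51% of cells without TNF and 15.4% and 4.51% with TNF in mice 1 and 2. The difference with TNF was -1.98 points in mouse 1 and 2.00 points in mouse 2 (exact two-sided permutation p = 1.0). Mouse 1 had the larger share under both treatments. Both scores were in the top 10% in 34 cells, namely 14 of 65 and 6 of 36 G2/M cells without TNF and 6 of 24 and 8 of 19 with TNF. Of the 25 G1/S and replication genes, 5 were at least 2-fold higher in G2/M cells than in others in all 4 samples (list median 1.44). *Rrm2*, a subunit of the enzyme that makes deoxynucleotides, had 290.1 and 166 CPM in mice 1 and 2 without TNF and 278 and 449 CPM with TNF, against 78.6, 10.6, 59.0 and 15.7 CPM. *Uhrf1*, a factor of DNA methylation maintenance, had 40.4 and 49.2 CPM in mice 1 and 2 without TNF and 58.0 and 104 CPM with TNF, against 38.0, 6.18, 22.9 and 6.90 CPM, so its separation was near 0 in mouse 1 without TNF (log2 0.09) and wide in mouse 2 with TNF (3.73).

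The next question was whether G2/M cells themselves answered TNF. The counts of the G2/M cells were added up per mouse and treatment, to totals of 31136665 and 18025558 gene fragments without TNF and 10060942 and 8565417 with TNF. Levels from here on are CPM of these sums after TMM scaling, and differences are log2 fold changes with TNF over without. Among 13614 genes tested by edgeR's quasi-likelihood test, 1 rose and 0 fell at an adjusted p under 0.05 (0.00735%), and 818 genes had an unadjusted p under 0.05. With the mouse as a block no gene passed (smallest adjusted p 0.0937, 1108 genes under an unadjusted 0.05). DESeq2's Wald test called 199 genes (1.46%), 117 higher and 82 lower. The number of genes called therefore depended on the test, and single genes are given with their values in each mouse. All these p-values rest on 2 mice. Without the block they measure the spread between the mice, and with it the spread left after a shared mouse difference. Those of the interaction below measure the spread of the difference between G2/M and other cells.

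The gene that rose was *Clec4e* (chr6:123281789-123289870, mm10), which encodes Mincle, a receptor for mycobacterial glycolipids and dead cells. It had 36.5 and 31.9 CPM in mice 1 and 2 without TNF and 863 and 707 CPM with TNF, or 34.2 ± 3.25 CPM without TNF and 785 ± 110.1 CPM with TNF (mean ± SD, n = 2 mice each). The treatments did not overlap, and the log2 fold change was 4.55 (SE 0.23, edgeR quasi-likelihood test, adjusted p = 0.048, and 0.0937 with the mouse as a block). Without any 1 of the 4 samples the adjusted p was 0.103 to 0.301. *Clec4e* was found in 43 of 65 and 30 of 36 G2/M cells without TNF and in 24 of 24 and 19 of 19 with TNF, and the median cell rose from 2.40 and 3.25 CPM to 357 and 247 CPM. In the other cells the sums gave 16.9 and 20.1 CPM without TNF and 728 and 745 CPM with TNF.

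Most other genes of the TNF and NF-kB list were also higher, without passing the edgeR test. Of 20 genes tested, 17 were higher with TNF in both mice and 0 were lower in both, against 26.1% and 31.2% of all genes tested. The median log2 fold change was 2.20, against 0.01 over all genes, and DESeq2 called 11 of the 20, all higher. *Nfkbia*, the inhibitor that NF-kB itself induces, had 113 and 89.1 CPM in mice 1 and 2 without TNF and 633 and 514 CPM with TNF (log2 2.54, SE 0.22, edgeR adjusted p = 0.306). *Sod2*, the mitochondrial superoxide dismutase, had 112 and 60.6 CPM in mice 1 and 2 without TNF and 568 and 435 CPM with TNF (log2 2.58, SE 0.34, edgeR adjusted p = 0.362). For both genes every sample with TNF lay above every sample without it. *Saa3*, an acute-phase protein, had the largest difference of the list (log2 8.66, SE 0.85, edgeR adjusted p = 0.316), with 0.199 and 0.700 CPM in mice 1 and 2 without TNF and 238 and 97.5 CPM with TNF. It was found in 6 of 65 and 5 of 36 G2/M cells without TNF and in 12 of 24 and 16 of 19 with TNF. The median G2/M cell with TNF held 1.30 and 18.7 CPM of *Saa3* in mice 1 and 2. The highest held 5350 and 723 CPM, so a single cell weighs heavily in the sum of mouse 1. *Acod1*, which makes itaconate, had 0.0993 and 21.6 CPM in mice 1 and 2 without TNF and 158 and 423 CPM with TNF (log2 4.76, SE 1.87, edgeR adjusted p = 0.828), and its log2 value was 11.5 without IL4+IL13 replicate 2. *Ccl5*, a T cell and monocyte chemokine, had 0.132 and 0.215 CPM in mice 1 and 2 without TNF and 5.06 and 3.21 CPM with TNF (log2 4.57, SE 0.74, edgeR adjusted p = 0.395). In the other cells its sums gave 3.51 and 1.68 CPM without TNF and 88.4 and 65.3 CPM with TNF. The share of cells with *Ccl5* was alike, however, with 8 of 24 and 7 of 19 G2/M cells with TNF. Among the others it was 99 of 339 and 85 of 336, and all 4 medians were 0. The log2 fold change in G2/M cells minus that in the others was -0.29 (SE 0.73). *Ccl2*, a monocyte chemokine named for its count, differed more between mice than between treatments, with 1034 and 126 CPM in mice 1 and 2 without TNF and 816 and 238 CPM with TNF (log2 -0.08, SE 1.01, edgeR adjusted p = 0.999).

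**Figure D5:**
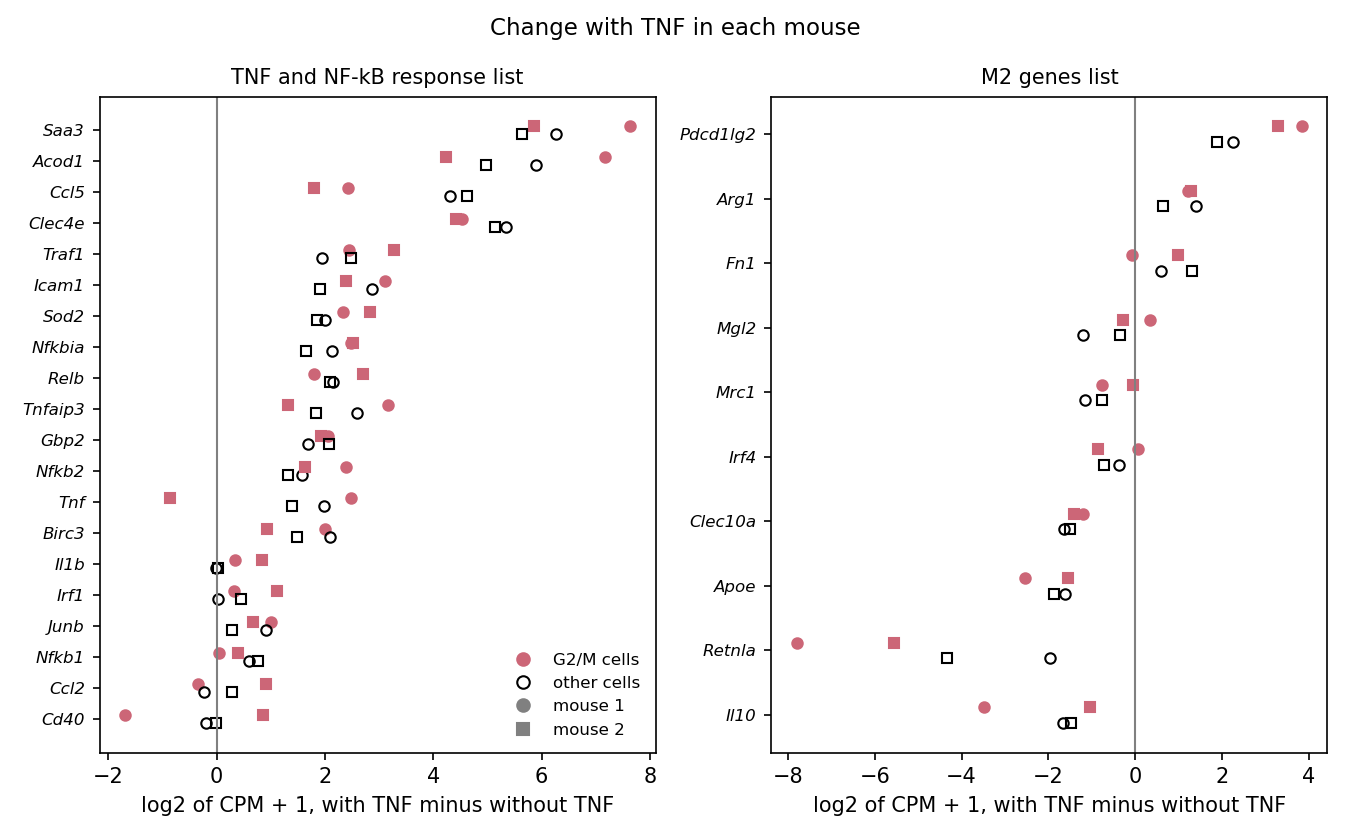
Log2 difference with TNF in each mouse (CPM of summed cells, 1 CPM added) for the tested genes of the TNF and NF-kB list (left) and the M2 list (right), in G2/M cells (filled) and other cells (open), with circles for mouse 1 and squares for mouse 2. In the left panel 17 of 20 genes lie to the right of 0 in both mice in G2/M cells, with *Saa3* and *Acod1* at the top. In the right panel *Retnla* lies left of 0 and *Pdcd1lg2* right of 0 in both mice.

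Genes of M2 polarisation gave no call by edgeR among 10 tested (0.00735% over all genes), and 4 of them had an unadjusted p under 0.05, as had 818 of all 13614 genes. *Mgl2* and *Mrc1*, both lectins, were named for their counts, with 1061 and 718 CPM in mice 1 and 2 without TNF and 1358 and 590.1 CPM with TNF for *Mgl2*, and 931 and 845 CPM in mice 1 and 2 without TNF and 549 and 817 CPM with TNF for *Mrc1*. The log2 fold changes were 0.17 (SE 0.42) and -0.34 (SE 0.25), with edgeR adjusted p of 0.994 and 0.919, and the treatments overlapped for *Mgl2* but not for *Mrc1*. In the median G2/M cell *Mgl2* went from 668 and 518 CPM in mice 1 and 2 without TNF to 441 and 316 CPM with TNF. In the median other cell it went from 328 and 303 CPM to 35.2 and 57.0 CPM. The highest of the 24 G2/M cells of mouse 1 with TNF held 8492 CPM of *Mgl2*. *Retnla*, a secreted protein strongly induced by IL4, had 267 and 498 CPM in mice 1 and 2 without TNF and 0.202 and 9.53 CPM with TNF (log2 -6.29, SE 1.35, edgeR adjusted p = 0.481). *Il10*, an anti-inflammatory cytokine, had the largest negative edgeR value of the list (log2 -6.48, SE 1.66, edgeR adjusted p = 0.569), with 10.3 and 1.29 CPM in mice 1 and 2 without TNF and 0 and 0.115 CPM with TNF. It was found in only 12 of 65 and 4 of 36 G2/M cells without TNF and in 0 of 24 and 1 of 19 with TNF. Few cells carried the *Retnla* sum. In mouse 1 without TNF *Retnla* was found in 18 of 65 G2/M cells, with a maximum of 13031 CPM and a median of 0. In mouse 2 without TNF it was found in 27 of 36, with a maximum of 21346 CPM and a median of 3.84 CPM. With TNF it was found in 2 of 24 G2/M cells of mouse 1 and in 14 of 19 of mouse 2 (median 2.72 CPM). DESeq2 called 2 of the 10 genes of the list, against 1.46% of all genes. *Clec10a*, another lectin, was lower, with 283 and 389.9 CPM in mice 1 and 2 without TNF and 122 and 147 CPM with TNF (log2 -1.30, edgeR adjusted p = 0.473). *Pdcd1lg2*, which encodes PD-L2, was higher, with 0.132 and 2.91 CPM in mice 1 and 2 without TNF and 15.4 and 37.6 CPM with TNF (log2 4.15, edgeR adjusted p = 0.769). It was found in 2 of 65 and 5 of 36 G2/M cells without TNF and in 6 of 24 and 8 of 19 with TNF. The median G2/M cell was at 0 in every sample. Of the macrophage identity genes, *Lyz2* had 8522 and 9368 CPM in mice 1 and 2 without TNF and 22617 and 16839 CPM with TNF (log2 1.17, SE 0.18, edgeR adjusted p = 0.394), and *Aif1* had 11.2 and 5.11 CPM in mice 1 and 2 without TNF and 67.8 and 44.1 CPM with TNF (log2 2.82, edgeR adjusted p = 0.425). The treatments did not overlap for either gene.

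Within the G2/M cells neither edgeR nor DESeq2 called a gene for TNF, where they called 0.00735% and 1.46% of all genes, in the cyclin, kinase, APC/C, checkpoint, kinetochore, kinesin, cytokinesis, passenger, condensin, chromatin and lamina lists. The list medians of the log2 fold change lay between -0.21 (nuclear lamina) and 0.23 (APC/C regulators). *Top2a* had 511 and 714 CPM in mice 1 and 2 without TNF and 689 and 919 CPM with TNF, *Ube2c* had 597 and 734 CPM in mice 1 and 2 without TNF and 827 and 574 CPM with TNF, and *Birc5* had 699.9 and 558 CPM in mice 1 and 2 without TNF and 690.1 and 568 CPM with TNF, and the treatments overlapped for all 3. Because the group is cut at 1 score for all samples, a fall of these genes within it was limited by the rule. In the other cells, which lie below that limit, *Ccnb2* had 103 and 99.1 CPM without TNF and 35.7 and 17.8 CPM with TNF, and *Cenpa* had 118 and 163 CPM without TNF and 43.4 and 52.0 CPM with TNF. Both are score genes, and most genes of division moved less. In the other cells the median log2 difference with TNF was -0.87 over the score genes. Over the lists just named it ran from -0.40 (cytokinesis) to 0.15 (chromatin and tubulin). Among the G1 genes, *Ccnd2* showed the largest difference in G2/M cells (log2 2.72, SE 0.72, edgeR adjusted p = 0.584), with 0.960 and 1.13 CPM in mice 1 and 2 without TNF and 9.003 and 4.59 CPM with TNF.

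Whether the change with TNF differed between G2/M and other cells was tested by an interaction in 1 fit over all 8 sums, with each mouse and treatment as a block. By edgeR 0 of 15305 genes passed (0%), 821 had an unadjusted p under 0.05, and DESeq2 called 54. The 3 genes with the smallest p were *Rsad2*, *Spp1* and *Ccr7*. *Rsad2* (viperin), an interferon-induced antiviral gene, had 224 and 191 CPM in mice 1 and 2 without TNF and 68.9 and 36.0 CPM with TNF in G2/M cells and 88.7 and 72.1 CPM without TNF and 126 and 54.2 CPM with TNF in the others (difference of log2 fold changes -2.09, edgeR adjusted p = 0.892). The median G2/M cell was at 3.96 and 5.30 CPM without TNF and at 0 in both mice with TNF, and the median other cell likewise went from 2.93 and 1.76 CPM to 0 in both. The difference of log2 fold changes was -0.33 with limma on values per cell and -0.39 for the top 5% of cells. *Ccr7*, the receptor that guides cells to lymph nodes, had 0.0662 and 0.484 CPM in mice 1 and 2 without TNF and 0.405 and 1.84 CPM with TNF in G2/M cells but 0.128 and 0.479 CPM without TNF and 23.6 and 211 CPM with TNF in the others (-6.25, edgeR adjusted p = 0.892). With TNF it was found in 4 of 24 and 5 of 19 G2/M cells, none above 22.9 CPM, and in 42 of 339 and 112 of 336 others. *Spp1* (osteopontin) had 4011 and 2269.8 CPM in mice 1 and 2 without TNF and 2788 and 2043 CPM with TNF in G2/M cells and 3717 and 2373 CPM without TNF and 4706 and 3302 CPM with TNF in the others (-0.73, edgeR adjusted p = 0.892). Its sums were thus lower with TNF in G2/M cells and higher in the others in both mice. The median G2/M cell fell in mouse 1 (2680 to 1564 CPM) but rose in mouse 2 (1520 to 1742 CPM). The median other cell rose in both, from 2355 and 1615 CPM to 2963 and 1996 CPM. Of the 5 MHC class II genes, which serve antigen presentation, 4 were higher with TNF in both mice in the other cells, while the G2/M sums of all 5 were higher in mouse 1 and lower in mouse 2. The highest G2/M cell held 8799 and 12029 CPM of *H2-Aa* in mice 1 and 2 without TNF and 12158 and 1445 CPM with TNF. Single cells can thus weigh heavily in these sums in both mice. The median G2/M cell of mouse 2 was higher with TNF for *H2-Aa* (31.2 to 43.4 CPM), *H2-Eb1* (17.5 to 33.3 CPM) and *Cd74* (90.6 to 192.7 CPM) and lower for *H2-Ab1* (51.3 to 46.1 CPM) and *Ciita* (3.11 to 2.77 CPM). *H2-Aa* had 358 and 909.6 CPM in mice 1 and 2 without TNF and 1084 and 244 CPM with TNF in G2/M cells and 238 and 423 CPM without TNF and 696 and 1377 CPM with TNF in the others (edgeR adjusted p of the interaction = 0.896).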

How the data were processed

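The authors aligned the Smart-seq2 reads to mm10 with gsnap and counted uniquely placed fragments per Ensembl gene with featureCounts 1.6.3, without use of strand, so overlapping and antisense genes cannot be told apart. The deposited values are raw counts per gene and cell. Of 1535 columns, 1524 were used and 11 were not, because 8 match no sample label and 3 name no mouse.

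Cells with at least 200000 gene fragments, 5000 genes and at most 10% mitochondrial fragments were kept (1439, with 85 removed). The G2/M group, the gene lists and the tests were chosen with earlier results of these data known. Levels per cell are means of CPM, and differences between G2/M and other cells use log2 of mean CPM with 1 CPM added, for genes found in at least 10% of either class.

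For TNF, counts of the G2/M cells were summed per mouse and treatment, since cells are not replicates, and tested with edgeR 4.0.16 (TMM, quasi-likelihood, treatment as the only term, Benjamini-Hochberg adjustment, threshold 0.05) in R 4.3.3. DESeq2 1.42.0 and limma 3.58.1 were alternatives. The design names 2 mice, and samples with the same number share 1 pair of plates and are read as 1 mouse. Taken relative to the mean of their treatment, they correlated with r = 0.148 (13614 genes), so the fit with the mouse as a replicate block is given beside the counts. The interaction used each mouse and treatment as a block. On simulated counts the TNF test recovered 42.4% of genes changed by a log2 of 2 and 58.8% of those changed by 3, with 0 false calls among 13563 genes run. With the mouse as a block it recovered 52.5% and 62.9%, with 5 false calls. The interaction recovered 40% and 57%, with 2 false calls. These counts were drawn from 1 mean per gene with a spread set by its level. They hold no shared mouse difference and no spread particular to a gene, so the shares may not hold for the real counts.

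Examples in a list are genes with high counts or large differences. Outside the lists, the genes with the largest median difference and the same sign in 4 of 4 samples were taken (15 upwards, and 3 of the 10 downwards are named). For TNF only genes past the threshold were taken, and for the interaction the 3 with the smallest p. *Clec10a*, *Pdcd1lg2*, *Lyz2*, *Aif1*, *H2-Aa*, *Cd14*, *Mertk*, *Fcgr1* and *Rb1* were chosen after their values were seen. Promoters came from RefSeq (GRCm38.p6, the same build as mm10), using the first one listed for each gene. The sets of higher and not higher genes held protein-coding genes only, while no such limit was set on all promoters listed. This search was also chosen after the data were seen. A summed level of lymphocyte markers is not reported here.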

Additional observations from a re-analysis of the deposited data

How the results depend on the processing

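The number of genes called for TNF within the G2/M cells (1 by edgeR) depended on the test. It was 0 with the mouse as a replicate block, 199 with DESeq2, 323 with the block in DESeq2 (added after the data were seen), 280 with no gene filter, 3 with limma on mean log2(CPM + 1) per cell (*Clec4e*, *Lyz2* and *C3*), 0 for the top 5% of cells and 3 for the top 20% (*Clec4e*, *Tmem176a* and *Saa3*). Without 1 sample it was 0 to 1, and the 1, without IL4+IL13 replicate 2, was *C3*. These genes were named after their values were seen. *Clec4e* had a log2 fold change of 3.99 to 5.05 over 12 alternatives and passed the threshold in 6, with adjusted p from 5.04e-107 to 0.699. For the interaction (0 by edgeR), DESeq2 called 54 genes and the fit with no gene filter 1, *Ccr7*. Genes at least 2-fold higher in G2/M cells numbered 249 with 10 CPM added (added after the data were seen) and 249 to 585 over 16 alternatives. The share of G2/M cells was lower with TNF in 11 of 11 alternatives, from -15.8 to -4.43 percentage points. The spike-in log2 difference was 0.0979 to 0.344 over 15.

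Of 212 values of named genes under alternatives, 202 kept their direction. *Ccl2* reversed to 0.32 with the replicate block, 0.31 with the block in DESeq2, 0.79 with limma, 0.10 for the top 20%, 2.05 without IL4+IL13 replicate 1 and 0.55 without IL4+IL13+TNF replicate 2 (range -1.21 to 2.05 without 1 sample). *Mgl2* reversed to -0.55 with limma, -0.15 for the top 20%, -0.05 without IL4+IL13 replicate 2 and -0.54 without IL4+IL13+TNF replicate 1 (range -0.54 to 0.63). Without 1 sample, *Acod1* ranged from 3.74 to 11.5, *Retnla* from -10.8 to -5.30, *Pdcd1lg2* from 3.17 to 7.65 and *Mrc1* from -0.68 to -0.08. With limma on values per cell, *Saa3* was 3.27, *Retnla* -0.74, *Ccl5* 0.86, *Pdcd1lg2* 1.605, *Ccnd2* 0.91 and the *Ccr7* interaction -0.10. The causes were not tested. For the spike-in result, 10 CPM added and the mean of log2(CPM + 1) per cell were not run, since it holds no CPM. The lowest of the 4 sums held 8565417 fragments from 19 cells.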
